A study of Homo sapiens with 2 samples.

Results

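Transcripts of the splicing regulators of HGC-27 cells were compared between 1 culture that overexpressed the long non-coding RNA lncPSCA and 1 control culture. The set holds 45 of the 63677 genes in the deposited table: the SR proteins, the SR-like proteins TRA2A, TRA2B, SRRM1 and SRRM2, the CLK and SRPK kinases that act on them, the hnRNP proteins and the PTB proteins. Members were chosen by name, and each was found in the table through its Ensembl identifier. HGC-27 is a human gastric carcinoma line, labelled as gastric adenocarcinoma. The lncPSCA culture was transfected with the plasmid pcDNA3.1-lncPSCA and the control culture with the empty vector pcDNA3.1, both with the reagent INTERFERin, and RNA of both was collected 48 hours later. Both cultures therefore carry the vector backbone and the transfection, and each group is 1 library, so that no difference below has a replicate check, no test between the groups was possible and no p-value is given.

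SR proteins carry RNA recognition motifs and a tail rich in arginine and serine. They bind exonic enhancers and favour the use of nearby splice sites, and SRPK and CLK kinases phosphorylate the tail and so set where the protein resides and how it acts. The hnRNP proteins coat nascent transcripts and often oppose exon inclusion, as PTB proteins do through pyrimidine-rich sequence. Many genes of both families control their own output through exons or introns that send the transcript to nonsense-mediated decay.

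The lncPSCA library held 23016646 counts and the control library 21552098. The table has no lncPSCA row. PSCA, the gene at that locus, had 28699 reads in the lncPSCA library and 22 in the control library. Of the epithelial markers, KRT18 had 0 reads in the lncPSCA library and 4 in the control library, and all 5 together had 85 and 104 reads in the lncPSCA and control libraries. The mesenchymal marker VIM stood at 2594 CPM (counts-per-million, scaled) in the lncPSCA library and 2601 CPM in the control library, and the fibroblast marker COL1A1 at 1042 and 1112 CPM in that order. The other fibroblast and mesenchymal markers that were measured were DCN, at a fold of 0.947 (0.904 to 0.993), COL1A2, at 1.37 (1.16 to 1.60), and FN1 and PDGFRB, at 2.35 (2.13 to 2.59) and 2.08 (1.53 to 2.88). FN1 and PDGFRB were the ones of these past 2-fold, and their part in the values of the splicing regulators was not tested. The mesenchymal marker CDH2 had only 6 reads in the lncPSCA library and 4 in the control library. The epithelial part of the label was thus scarcely seen in either library. The 4 leukocyte markers summed to 124 and 87 reads, the 3 endothelial ones to 13 and 5, and of the erythroid ones HBB had none in either library while HBA1 had 350 and 407, in the lncPSCA and control libraries. RNA was measured in bulk, so fewer cells with a transcript and less of it per cell cannot be told apart.

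Nearly all of these splicing regulators had a somewhat lower share of the reads in the lncPSCA library, and few differed by much. Of the 45 members, 43 reached a mean of 1 CPM over both libraries, and 40 of the 43 had a log2 ratio of lncPSCA over control below 0, against 51.9% of the 15440 genes that reached this level. The median log2 ratio of the 43 was -0.29, and that of all measured genes was -0.02. Together the members took 1.44% of all counts in the lncPSCA library (95% counting interval 1.43% to 1.44%) and 1.71% in the control library (1.70% to 1.71%). Counting intervals are exact (Clopper-Pearson) and cover counting error only. Of the 43, 39 had a counting interval of the fold wholly below 1, against 32.1% of all measured genes. Another 2 had one wholly above 1, against 27%. Such intervals narrow with read depth. The median of the mean levels was 228 CPM for the members and 21.9 CPM for all measured genes, so these shares are not of like depth.

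Differences of at least 1.5-fold with a counting interval wholly below 0.8, or above its inverse for higher genes, were seen for 3 members, all lower: SRSF1, HNRNPAB and HNRNPH3. These are 6.98% of the measured members, and 4.26% of all measured genes were lower by this rule. None of the members was higher by it, against 8.26% of all measured genes. A stricter rule, at least 2-fold with the interval beyond 1.5-fold, was met by no member in either direction, where 3.02% of all measured genes were higher and 0.596% lower. The members past these limits are few. Their lower share stands near the background, and their share higher by the 1.5-fold rule, with none, lies below the 8.26% of all measured genes. What most members had in common was a small difference in 1 direction, with CLK2, SRPK2 and PTBP3 on the other side. This was not particular to them. Of 22 measured hnRNP-like proteins outside the set, 19 had a log2 ratio below 0, against 51.9% of all measured genes. By contrast, 16 of 20 measured tissue-type splicing regulators were above 0, against 48.1%.

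**Figure D1:**
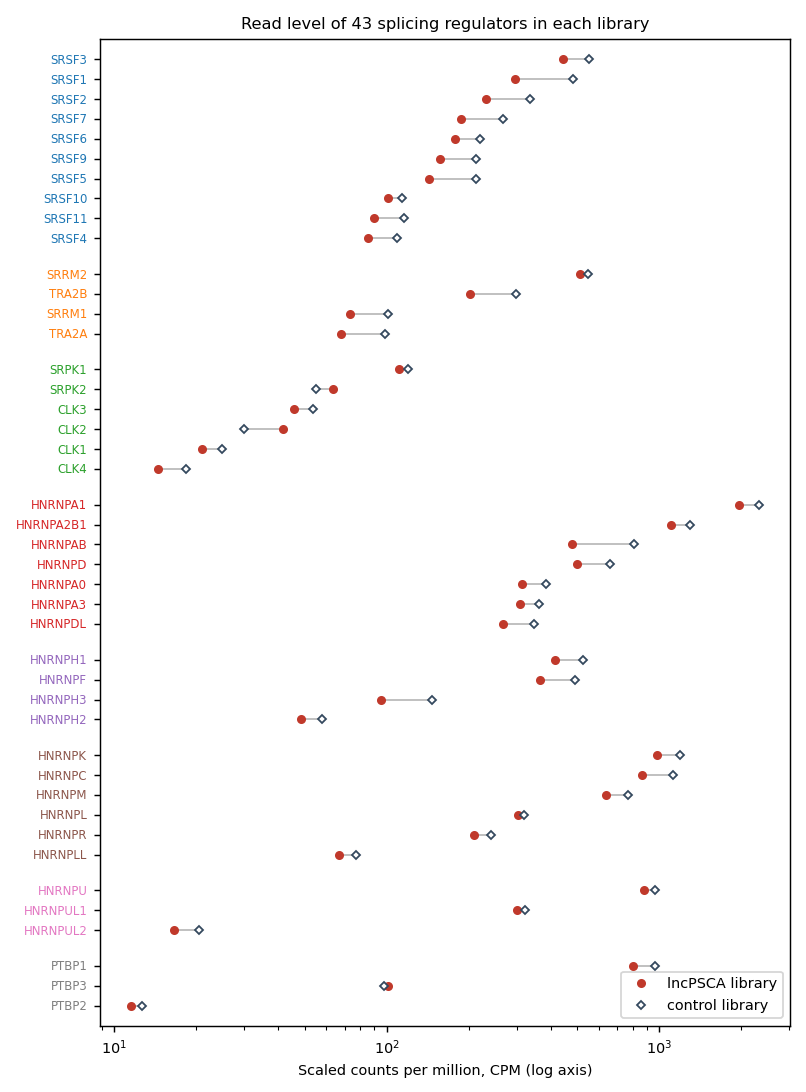
Scaled counts-per-million values (CPM, log axis) of the 43 measured splicing regulators, a row for each gene and a colour of the name for each class, with the lncPSCA library as filled red circles and the control library as open diamonds. The filled circle lies left of the diamond in 40 of 43 rows; SRPK2, CLK2 and PTBP3 are the exceptions.

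The SR proteins were lower without exception among the 10 that were measured. Their median log2 ratio was -0.40, between -0.70 for SRSF1 and -0.17 for SRSF10. As a group they took 0.195% of counts in the lncPSCA library and 0.256% in the control library. SRSF1 (ENSG00000136450), among the earliest SR proteins described and an oncogene in several tissues, was at 295 CPM in the lncPSCA library and 481 CPM in the control library, a fold of 0.614 (0.595 to 0.633). It lay at the 3.25th percentile of the log2 ratios of all measured genes.

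SRSF3, a small SR protein that also takes part in mRNA export, was at 442 CPM in the lncPSCA library and 551 CPM in the control library, a fold of 0.802 (0.781 to 0.824). SRSF7, its closest relative, was at 188 CPM in the lncPSCA library and 268 CPM in the control library, a fold of 0.701 (0.674 to 0.729). SRSF2, which binds exonic enhancers and is mutated in myeloid neoplasms, was at 232 CPM in the lncPSCA library and 334 CPM in the control library, a fold of 0.693 (0.669 to 0.718). All these SR genes were lower, SRSF3 the least of the 3. Exons of SRSF2 overlap those of MFSD11 on the opposite strand in GENCODE release 29, and MFSD11 was at 214 CPM in the lncPSCA library and 287 CPM in the control library. Whether reads of 1 were counted for the other was not tested, since the sources do not say whether counting used strand. In all, 16 members are overlapped by another gene on the opposite strand. The same limit holds for each, and not all of the overlapping genes are named below.

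SRSF5, an activator of exon inclusion, had 3347 reads in the lncPSCA library and 4467 in the control library, a fold of 0.672 (0.643 to 0.703), just short of the 1.5-fold limit. SRSF6 had 4171 and 4624 reads in the lncPSCA and control libraries, a fold of 0.810 (0.776 to 0.844). SRSF4, with 2 RNA recognition motifs like them, had 2001 and 2292 reads in the lncPSCA and control libraries, a fold of 0.784 (0.738 to 0.832). SRSF5 thus lay further below 1 than SRSF4 and SRSF6, whose intervals overlap, though not as far as SRSF1. SRSF9 had a fold of 0.738 (0.707 to 0.771), SRSF11 one of 0.779 (0.734 to 0.826), and SRSF10, which acts as a splicing repressor when dephosphorylated, one of 0.890 (0.840 to 0.942).

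SRSF12 and SRSF8 did not reach the minimum level. SRSF12 had 22 reads in the lncPSCA library and 16 in the control library. The row matched to SRSF8 is listed at 0 in both libraries. The rows of RBM8A, a core protein of the exon junction complex that cells need, and of TAF15 are also listed at 0 in both, so the row of SRSF8 is not read as absence of its transcript.

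The SR-like proteins were lower as well, with a median log2 ratio of -0.50. TRA2B, which binds GAA-rich enhancers, was at 203 CPM in the lncPSCA library and 297 CPM in the control library, a fold of 0.681 (0.656 to 0.707). Its paralog TRA2A was at 67.9 CPM in the lncPSCA library and 98.8 CPM in the control library, a fold of 0.687 (0.644 to 0.734). The paralogs thus differed alike within counting error, with TRA2A at 33.5 reads per 100 reads of TRA2B in the lncPSCA library and 33.2 in the control library. SRRM1, a coactivator that bridges SR proteins to the spliceosome, had a fold of 0.728 (0.683 to 0.776). SRRM2, a very large scaffold protein of nuclear speckles, was at 510.1 CPM in the lncPSCA library and 548 CPM in the control library, a fold of 0.931 (0.907 to 0.955), the nearest to 1 of the 4.

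Of the 6 kinases of the SR proteins, 2 were higher and 4 lower. CLK2 (ENSG00000176444), a nuclear kinase that phosphorylates the arginine-serine tails, had 980 reads in the lncPSCA library and 629 in the control library. That is 41.7 and 29.8 CPM in the lncPSCA and control libraries, a fold of 1.40 (1.26 to 1.55), the highest among the members, and it did not reach the 1.5-fold limit. SRPK2, a mainly cytoplasmic kinase that primes SR proteins for import into the nucleus, was at 63.3 CPM in the lncPSCA library and 54.9 CPM in the control library, a fold of 1.15 (1.07 to 1.246). CLK2 and SRPK2 are the 2 members whose interval lay wholly above 1. KMT2E, whose exons overlap SRPK2 on the opposite strand, had a fold of 1.79 (1.60 to 1.998), and its part in the SRPK2 value was not tested.

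SRPK1, a widely expressed SR protein kinase, was at 111 CPM in the lncPSCA library and 119 CPM in the control library, a fold of 0.926 (0.876 to 0.979). CLK1 had 493 reads in the lncPSCA library and 524 in the control library, and CLK4, its closest paralog, 341 and 385 reads in the lncPSCA and control libraries. CLK3 had 1075 and 1131 reads in the lncPSCA and control libraries. These 4 kinases had folds between 0.795 and 0.926. The 6 kinases together took 0.0303% of counts in the lncPSCA library (0.0296% to 0.0310%) and 0.0294% in the control library (0.0287% to 0.0302%), which overlap.

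The hnRNP A/B and D genes were lower, 7 of 7, with a median log2 ratio of -0.29. HNRNPAB (ENSG00000197451), an abundant RNA-binding protein also known as CBF-A, had the lowest ratio of all members. It was at 478 CPM in the lncPSCA library and 809 CPM in the control library, a fold of 0.591 (0.577 to 0.605), at the 2.51st percentile of all measured genes. PHYKPL, whose exons overlap HNRNPAB on the opposite strand, was at 71.9 CPM in the lncPSCA library and 123 CPM in the control library, a fold of 0.586 (0.551 to 0.624). The overlapping gene thus had nearly the same fold, and its part in the HNRNPAB value was not tested.

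HNRNPA1, the member with the most reads and a classical repressor of exon inclusion that counters SRSF1, was at 1959.9 CPM in the lncPSCA library and 2324 CPM in the control library, a fold of 0.843 (0.833 to 0.854). HNRNPA2B1, which also sorts RNA for transport, was at 1105 CPM in the lncPSCA library and 1293 CPM in the control library, a fold of 0.855 (0.841 to 0.870). HNRNPA3 was at 308 and 362 CPM in the lncPSCA and control libraries, a fold of 0.851 (0.824 to 0.879). The folds of these close relatives lay close together. HNRNPA0, the intronless member of the family, had a fold of 0.818 (0.792 to 0.844). HNRNPD, known as AUF1 for its binding to AU-rich elements, and its paralog HNRNPDL had folds of 0.757 (0.738 to 0.776) and 0.768 (0.743 to 0.795). CBX3, whose exons overlap HNRNPA2B1 on the opposite strand, had a fold of 0.579 (0.560 to 0.598), further below 1 than HNRNPA2B1 itself.

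Among the G-tract binding hnRNP F/H genes, HNRNPH3 (ENSG00000096746) was the lowest. It was at 95.4 CPM in the lncPSCA library and 147 CPM in the control library, a fold of 0.651 (0.616 to 0.687). RUFY2, which overlaps it on the opposite strand, had a fold of 0.743 (0.681 to 0.809) and so was lower too; its part in the HNRNPH3 value was not tested. HNRNPF, which like its relatives binds runs of guanine, was at 364 CPM in the lncPSCA library and 489.8 CPM in the control library, a fold of 0.742 (0.721 to 0.764). HNRNPH1 was at 414 CPM in the lncPSCA library and 524 CPM in the control library, a fold of 0.791 (0.770 to 0.813). HNRNPH2, the X-linked paralog of HNRNPH1, had a fold of 0.838 (0.772 to 0.909), with an interval that overlaps that of HNRNPH1. The class median was -0.38.

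The other hnRNP genes were lower as well, with a median log2 ratio of -0.23 for HNRNPC, HNRNPK, HNRNPL, HNRNPLL, HNRNPM and HNRNPR and of -0.14 for the hnRNP U genes. HNRNPC, which binds uridine tracts and keeps cryptic exons silent, was at 866 CPM in the lncPSCA library and 1127 CPM in the control library, a fold of 0.769 (0.755 to 0.783). HNRNPK, which binds cytosine-rich sequence, was at 977 CPM in the lncPSCA library and 1193 CPM in the control library, a fold of 0.819 (0.805 to 0.834). HNRNPM had a fold of 0.834 (0.816 to 0.853), and HNRNPR and HNRNPLL both one of 0.869. Of this class HNRNPC was the furthest below 1 and HNRNPL, a CA-repeat binding regulator, the nearest, at 302 CPM in the lncPSCA library and 319 CPM in the control library, a fold of 0.947 (0.915 to 0.979). HNRNPU, a scaffold that binds chromatin and RNA, was at 878 and 965 CPM in the lncPSCA and control libraries, a fold of 0.910 (0.893 to 0.928), and HNRNPUL1 had a fold of 0.928 (0.897 to 0.959). HNRNPUL2 had only 389 reads in the lncPSCA library and 432 in the control library, and the read-through gene HNRNPUL2-BSCL2 shares its exons. How reads that lie in both were counted is not given, so the level of HNRNPUL2 is uncertain. Exons of HNRNPH2, HNRNPL and SRSF1 are also overlapped on the same strand, by RPL36A-HNRNPH2, AC008982.1 and AC015813.2 in that order. Each of these overlapping genes had 0 reads in both libraries, and the same limit holds for the members they overlap.

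PTBP1, the PTB protein of most non-neuronal cells, was at 798 CPM in the lncPSCA library and 964 CPM in the control library, a fold of 0.827 (0.811 to 0.844). PTBP2, its neuronal paralog, had 271 reads in the lncPSCA library and 266 in the control library, a fold of 0.914 (0.769 to 1.09). PTBP3, first described in blood cells, had 2383 reads in the lncPSCA library and 2055 in the control library, a fold of 1.04 (0.981 to 1.10). PTBP1 was therefore the only PTB gene with an interval wholly on 1 side of 1.

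**Figure D2:**
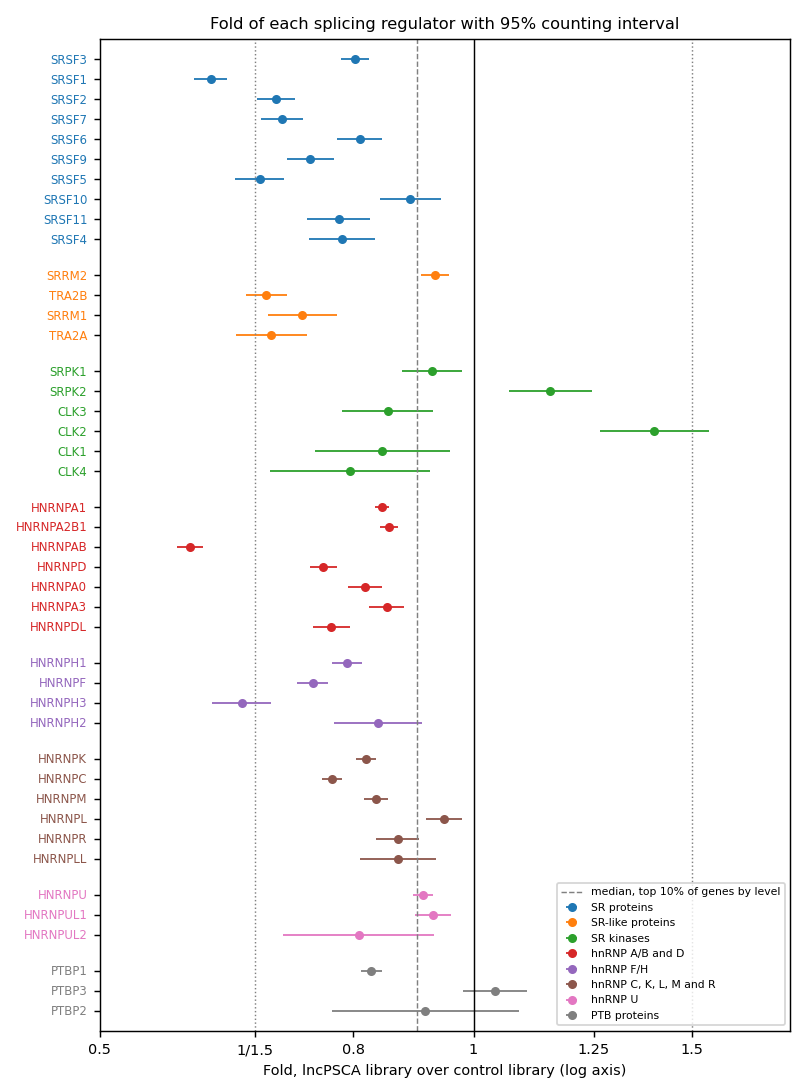
Fold of the lncPSCA library over the control library (log axis) for the 43 measured splicing regulators, with 95% counting intervals as bars and a colour for each class. Dotted lines mark 1.5-fold in either direction, and the dashed line marks the median of the 10% of genes with the highest read level; SRSF1 (0.614), HNRNPAB (0.591) and HNRNPH3 (0.651) lie past the left dotted line and CLK2 (1.40) is furthest right.

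Levels per kilobase of the longest mRNA in GENCODE release 29 were set in order between genes. Which transcripts of a gene were expressed was not measured, so the order below depends on this choice of length. HNRNPA1 led with 476 CPM per kilobase in the lncPSCA library and 564 in the control library. HNRNPAB stood at 266 CPM per kilobase in the lncPSCA library and 450.3 in the control library, and HNRNPK at 332 in the lncPSCA library and 406 in the control library. HNRNPAB thus lay below HNRNPK in the lncPSCA library and above it in the control library. The same held against HNRNPA2B1, at 302 CPM per kilobase in the lncPSCA library and 353 in the control library. Of the SR proteins SRSF9 had the highest level in both libraries, 131 and 177 CPM per kilobase in the lncPSCA and control libraries. SRSF1 stood at 94.6 CPM per kilobase in the lncPSCA library and 154 in the control library, and SRSF3 at 105 in the lncPSCA library and 130.5 in the control library, so that SRSF1 lay below SRSF3 in the lncPSCA library and above it in the control library. PTBP2 was the lowest measured member, at 0.959 and 1.05 CPM per kilobase in the lncPSCA and control libraries.

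The balance between related genes does not depend on how the libraries are scaled. For 18 pairs of related members with reads, the odds ratio compares the reads of the one gene per read of the other in the lncPSCA library with the same in the control library, with an exact conditional counting interval. Of the 18 intervals, 4 lay wholly above 1, 4 wholly below 1 and 10 spanned 1. CLK2 had 91.2 reads per 100 reads of CLK3 in the lncPSCA library and 55.6 in the control library, an odds ratio of 1.64 (1.44 to 1.87). PTBP3 had 12.7 reads per 100 reads of PTBP1 in the lncPSCA library and 10.1 in the control library, an odds ratio of 1.26 (1.18 to 1.34). These are shifts towards CLK2 and towards PTBP3 in the lncPSCA library. EDC3, whose exons overlap CLK3 on the opposite strand, had 2012 reads in the lncPSCA library and 2085 in the control library. Its part in the CLK3 count was not tested.

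Smaller shifts were those towards SRSF3 over SRSF7, with an odds ratio of 1.14 (1.09 to 1.20), and towards HNRNPL over HNRNPLL, with 1.09 (1.01 to 1.18). SRRM1 had 14.4 reads per 100 reads of SRRM2 in the lncPSCA library and 18.4 in the control library, an odds ratio of 0.782 (0.730 to 0.838). SRPK1 had 175 reads per 100 reads of SRPK2 in the lncPSCA library and 217 in the control library, an odds ratio of 0.803 (0.730 to 0.884). The odds ratio of SRSF1 to SRSF9 and that of SRSF5 to SRSF6 were both 0.831. In each of these 4 pairs the lncPSCA library held fewer reads of the gene named first per read of the other.

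For the pairs TRA2A to TRA2B (1.01, 0.935 to 1.09), HNRNPA1 to HNRNPA2B1 (0.986, 0.966 to 1.01), HNRNPA3 to HNRNPA2B1 (0.995, 0.959 to 1.03) and HNRNPD to HNRNPDL (0.985, 0.945 to 1.03) the intervals spanned 1 and leave room for shifts of less than 10% either way. The intervals of SRSF4 to SRSF6 (0.968, 0.899 to 1.04) and HNRNPH1 to HNRNPH2 (0.944, 0.866 to 1.03) also spanned 1. Those of CLK1 to CLK4 (1.06, 0.874 to 1.29), HNRNPUL1 to HNRNPUL2 (1.15, 0.995 to 1.33), PTBP2 to PTBP1 (1.11, 0.929 to 1.32) and SRSF10 to SRSF12 (0.721, 0.353 to 1.44) were wider, and a shift in these was not detectable at this depth. Where copies exist, reads can be split between a gene and its processed pseudogenes. Rows named as such numbered 138 for 23 members and held 3195 reads in the lncPSCA library and 3371 in the control library. HNRNPA1 had the most, with 2199 and 2280 reads in the lncPSCA and control libraries, or 4.77% and 4.65% of its own reads.

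**Figure D3:**
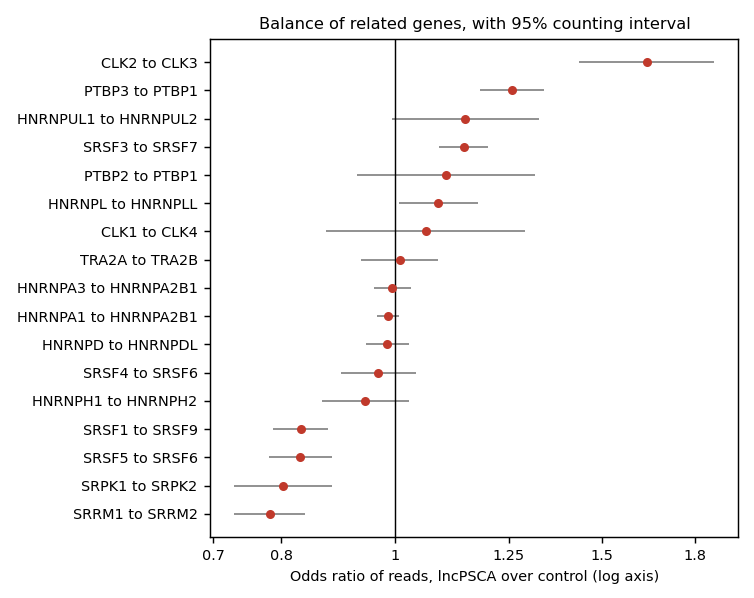
Odds ratio (log axis, lncPSCA over control) of the reads of the gene named first to those of the gene named second, with 95% counting intervals, for 17 pairs of related splicing regulators; the pair SRSF10 to SRSF12, with few reads, is left out. CLK2 to CLK3 (1.64) is the highest and SRRM1 to SRRM2 (0.782) the lowest.

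The ratio of the libraries followed read level and mRNA length across all measured genes. Its Spearman correlation with mean CPM was -0.23 across all measured genes and -0.14 across the 43 members. The members are abundant transcripts: 26 of the 43 belong to the 10% of measured genes with the highest mean level, at least 133 CPM. Among those genes, 72.0% of genes had a log2 ratio below 0 and the median was -0.15, with quartiles of -0.30 and 0.03. All 26 members there were below 0, with a median of -0.31. After centring on the running median of genes of like level, the median of the 43 members was -0.17 and 35 were below 0. HNRNPAB alone still met the 1.5-fold rule, and SRRM2, SRPK1, HNRNPL, HNRNPU and HNRNPUL1 changed sign.

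Across the 43 members, the Spearman correlation of log2 ratio with the length of the longest mRNA was 0.42, and across all measured genes with a length it was 0.24. This describes genes that share 2 libraries. The members run from 1201 bases for SRSF9 to 12014 for PTBP2, and their median length is 3664 bases against 3010 for all measured genes. After centring along length, 40 of the 43 members were below 0 and the median was -0.34, and SRSF1 and HNRNPAB met the 1.5-fold rule while HNRNPH3 did not. These were not the same 40, since PTBP3 changed sign, to -0.115, and HNRNPL lay at 0. PTBP3 has an mRNA of 7995 bases and PTBP1 one of 3691, SRRM2 one of 9353 and SRRM1 one of 4011, so in both pairs the balance lay towards the longer transcript. In the pair CLK2 and CLK3 it lay towards the shorter one, with 2166 bases for CLK2 and 10498 for CLK3. Over the 8 pairs whose interval did not span 1, the balance lay towards the longer mRNA in 4 and towards the shorter in 4. The part of length in these shifts was not tested.

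**Figure D4:**
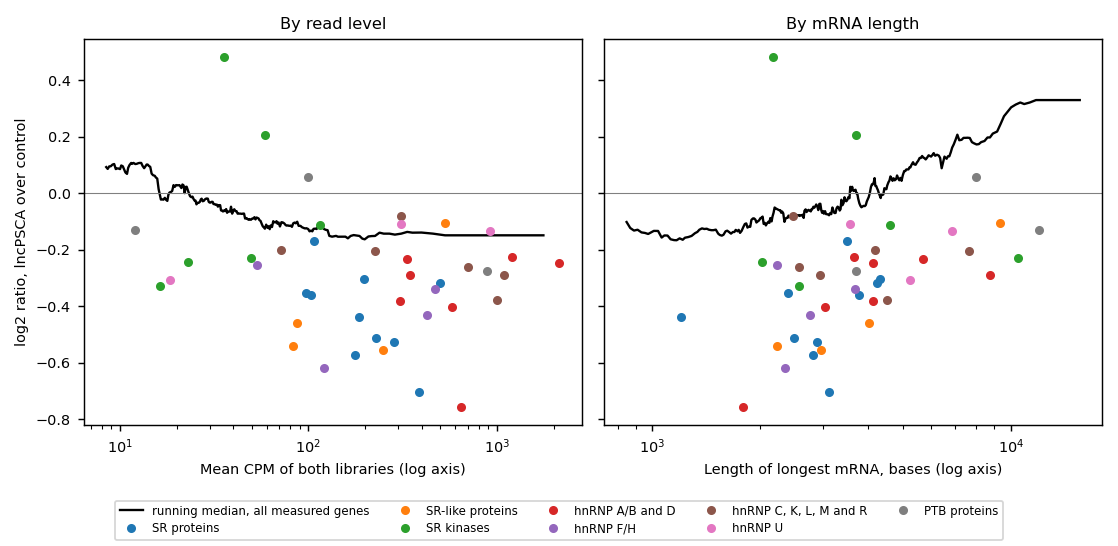
log2 ratio of lncPSCA over control for the 43 measured splicing regulators (points, a colour for each class) against mean CPM on the left and length of the longest mRNA on the right, both on log axes. The black line is the running median of all measured genes; most members lie below it in both panels, and CLK2 lies furthest above it.

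Many of these genes have transcripts that are annotated as unproductive. In GENCODE release 29, 33 of the 43 measured members (76.7%) have at least 1 transcript of the nonsense-mediated decay type, against 43.0% of the 12191 measured protein-coding genes. A retained-intron transcript is annotated for 32 of 43 (74.4%), against 58.0% of measured protein-coding genes. The members also have more annotated transcripts, a median of 12 against 8. A count per gene sums over all of these, so productive and unproductive transcripts are not separated in any value above.

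The promoter sequences of 3 members are shown because they stand at the ends of the range: SRSF1, the lowest SR protein, HNRNPAB, the lowest member, and CLK2, the highest. They are taken from RefSeq (GRCh38.p14), run 5′ to 3′ on the strand of the gene and cover 250 bases before to 50 after its start: chr17:58007197-58007496 on the minus strand for SRSF1, chr5:178204283-178204582 on the plus strand for HNRNPAB and chr1:155273455-155273754 on the minus strand for CLK2. Capitals mark the GC box GGGCGG and the CCAAT box CCAAT on either strand, and there is none in SRSF1.
SRSF1: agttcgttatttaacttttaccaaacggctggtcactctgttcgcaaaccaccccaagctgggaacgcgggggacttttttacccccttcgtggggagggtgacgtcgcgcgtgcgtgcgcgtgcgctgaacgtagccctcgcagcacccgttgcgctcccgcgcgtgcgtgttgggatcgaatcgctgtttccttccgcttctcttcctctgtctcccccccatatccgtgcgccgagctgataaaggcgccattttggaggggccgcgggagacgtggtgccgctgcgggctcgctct
HNRNPAB: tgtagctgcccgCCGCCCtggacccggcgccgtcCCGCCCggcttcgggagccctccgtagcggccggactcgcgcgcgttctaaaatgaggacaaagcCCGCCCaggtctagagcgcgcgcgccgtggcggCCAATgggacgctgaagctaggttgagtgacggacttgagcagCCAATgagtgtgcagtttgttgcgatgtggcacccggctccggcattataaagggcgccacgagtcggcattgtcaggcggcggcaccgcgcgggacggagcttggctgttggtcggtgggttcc
CLK2: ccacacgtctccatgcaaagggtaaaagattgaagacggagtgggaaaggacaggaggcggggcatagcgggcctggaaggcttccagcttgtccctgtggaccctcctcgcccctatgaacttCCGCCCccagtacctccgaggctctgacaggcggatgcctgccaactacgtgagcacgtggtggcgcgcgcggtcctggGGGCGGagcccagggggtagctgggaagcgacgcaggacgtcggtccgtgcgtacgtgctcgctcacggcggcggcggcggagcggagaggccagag
The HNRNPAB window holds 3 GC boxes and 2 CCAAT boxes, and that of CLK2 holds 2 GC boxes. All 3 windows are rich in G and C, at 62% for SRSF1, 67.3% for HNRNPAB and 67% for CLK2.

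RefSeq windows were matched for 42 of the 45 members, 64 windows in all, since some genes have several starts and their windows can overlap. The GC box was found in 62.5% of the 64 and in 45.0% of all 35116 promoter windows. The CCAAT box was in 39.1% of the members' windows and 34.6% of all, and the E-box CACGTG in 15.6% and 7.26%, with the members' value first. The TATA box TATAAA was in 10.9% of the members' windows and 11.5% of all, and the ETS motif CCGGAAG in 10.9% and 10.3%. The core of the interferon-stimulated response element, searched as GAAANNGAA, was in 5 of the 64 windows (7.81%) and in 8.11% of all. The cyclic AMP response element TGACGTCA was in no member's window and in 1.85% of all. The members' windows had a median G and C content of 65.5%, against 58.7% for all, which moves with the counts of GC-rich motifs. A match of letters in a window describes the sequence and shows no binding.

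Other genes of splicing control were set beside the members. Of 22 measured hnRNP-like proteins outside the set, 19 were below 0, against 51.9% of all measured genes, with a median log2 ratio of -0.29. By the 1.5-fold rule 1 was lower and none higher, against 4.26% and 8.26% of all measured genes in that order. The one was RBM3, a cold-inducible RNA-binding protein, at 160.2 CPM in the lncPSCA library and 258 CPM in the control library, a fold of 0.622 (0.596 to 0.648). Of 30 other proteins with arginine-serine domains none met the rule in either direction, and the median was -0.20. The most abundant of them, SNRNP70 of the U1 particle and the 3′ splice site factor U2AF2, had folds of 0.837 (0.814 to 0.862) and 0.881 (0.854 to 0.910).

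Splicing regulators known for tissue-type programs had a median log2 ratio of 0.13. Of 20 measured, 16 were above 0, against 48.1% of all measured genes, and 3 were higher by the 1.5-fold rule, against 8.26%. None was lower by that rule. After centring along mean expression 6 of the 20 were below 0, and along length 9 were. NOVA2, a neuronal regulator, had 51 reads in the lncPSCA library and 15 in the control library, a fold of 3.05 (1.69 to 5.84). MBNL3 and MBNL2, muscleblind proteins that bind YGCY motifs, had folds of 2.30 (1.60 to 3.35) and 1.73 (1.38 to 2.17). All 3 were at low levels, under 10 CPM in either library. NOVA2, at 2.17 CPM in the lncPSCA library and 0.711 CPM in the control library, reached the minimum mean of 1 CPM only through the lncPSCA library. With a minimum of 5 CPM, MBNL2 alone of these genes met the 1.5-fold rule. The epithelial regulator ESRP1 had 31 reads in the lncPSCA library and 33 in the control library.

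Among 14 measured enzymes, import factors and phosphatases that act on SR proteins, none was higher by the 1.5-fold rule and 1 was lower. Of all measured genes 8.26% were higher and 4.26% lower by this rule, and 1 of 14 is 7.14%. The lower gene was JMJD6, a lysyl hydroxylase of splicing factors. It was at 25.5 CPM in the lncPSCA library and 41.6 CPM in the control library, a fold of 0.613 (0.552 to 0.681). Of 14 measured factors of nonsense-mediated decay, the pathway that removes the unproductive transcripts of SR and hnRNP genes, 7 were above 0 and 7 below, with a median log2 ratio of 0.03. Only SMG1 met the 1.5-fold rule, or 7.14% of these factors, against 8.26% of all measured genes that were higher by it. SMG1, the kinase of the decay factor UPF1, was at 172 CPM in the lncPSCA library and 92.7 CPM in the control library, a fold of 1.85 (1.76 to 1.96). Its mRNA is 16115 bases long, and its log2 ratio of 0.89 became 0.56, short of the rule, when centred along length and 1.04, past 2-fold, when centred along mean expression. SMG1 has near-identical partial copies, so its count is uncertain. UPF1 itself had a fold of 0.983 (0.952 to 1.02).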

How the data were processed

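The authors deposited 1 table of raw gene counts, 1 column a library. Per the submitters' processing notes, TopHat2 and HTSeq were used with hg19. The annotation release, the use of strand and the handling of multiply mapped reads are not stated in any label or header used here. Symbols were matched for 52181 of 63677 identifiers (81.9%), and unmatched rows stayed in the totals.

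Library sizes were scaled by TMM (edgeR 4.0.16; factors 1.02 for lncPSCA and 0.979 for control). The log2 ratio of lncPSCA over control used a pseudocount of 1, and folds are ratios of CPM without it. Intervals (95%, Clopper-Pearson, scipy 1.17.1; odds ratios, R 4.3.3) cover counting error only, and reads are not independent molecules. With 1 library per group there is no test. The 2 size rules and the minimum of 1 CPM are given in the text. The rules were tested on simulated data with counting noise alone, which leaves out spread between cultures. Running medians covered 501 genes. Lengths, overlaps and transcript types came from GENCODE release 29 (GRCh38) by gene identifier; no coordinates were mixed with hg19. As alternatives, libraries were scaled by DESeq2 1.42.0, upper quartiles or totals, and the others were other minimum levels, another pseudocount, centring, and added pseudogene reads.

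Members, lists and pairs were chosen with earlier results of these data known. Named were members past the 1.5-fold rule, the most abundant and extreme ones of each class, both genes of each pair and members under the minimum; of other lists, up to 4 genes per direction past the rule or the 2 most abundant. The count of intervals on 1 side of 1, and MFSD11, EDC3, KMT2E, PHYKPL, CBX3, RUFY2, ESRP1, TAF15, RBM8A and UPF1, were chosen after values were seen.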

Additional observations from a re-analysis of the deposited data

How the results depend on the processing

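No member met the 2-fold rule under any of the 8 settings tried (3 other scalings, 2 other minimum levels, a pseudocount of 5, and centring along mean expression or length). Centring along mean expression left 1 member lower by the 1.5-fold rule and moved the medians to -0.17 (all members), -0.26 (SR proteins), -0.15 (hnRNP A/B and D), -0.24 (hnRNP F/H) and 0.0137 (hnRNP U). Under it SRRM2 (0.0451), SRPK1 (0.000625), HNRNPL (0.0639), HNRNPU (0.0137) and HNRNPUL1 (0.0351) had log2 ratios of opposite sign. Total-count scaling, which moved the median of all genes to 0.04, gave -0.23 for all members and -0.0741 for hnRNP U, and HNRNPH3 fell short of the 1.5-fold rule; upper-quartile scaling added SRSF5. Centring along length gave -0.28 for PTB proteins. The counts of members with an interval wholly below 1 (39) and wholly above 1 (2) moved too. They were 31 and 5 with centring along mean expression, and 36 and 3 with total-count scaling. Of the other splicing and decay genes (4 higher, 2 lower by the 1.5-fold rule), 7 were higher with total counts and 2 with a minimum of 5 CPM, and 4 were lower with upper-quartile scaling, 1 with centring along mean expression and 5 along length. By the 2-fold rule, 284 measured genes were higher and 46 lower with a minimum of 5 CPM, and 150 were lower with no minimum. In these cases the cause was not tested, except that another minimum tests other genes. Adding pseudogene reads left all 18 odds ratios within their intervals. No paired analysis was possible because each group has 1 library, and for the same reason no replicate could be left out. Spread between cultures was not measured.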
